A study of Mus musculus with 12 samples.

Results

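The matrix metalloproteinases (Mmp genes), the membrane-anchored ADAM proteases (Adam), the secreted ADAMTS proteases (Adamts), their ADAMTS-like relatives (Adamtsl) and the tissue inhibitors of metalloproteinases (Timp) were examined as 1 set in bulk RNA-Seq of W-20 bone marrow stromal cells (BMSCs). A gene belonged to the set when it was protein coding and its symbol was 1 of these 5 prefixes followed by a number and at most 1 letter, with no use of its measured values, which gave 85 of the 56980 genes counted. The set held 23 Mmp, 34 Adam, 19 Adamts, 5 Adamtsl and 4 Timp genes. W-20 is a mouse stromal cell line, here labelled W-20-17, that can become osteoblast or adipocyte. There were 12 libraries, 3 in each of 4 groups, from cells exposed for 2 hours to 50 nM parathyroid hormone (PTH) or to vehicle (PBS). WT denotes the unmodified cells, and Y428F denotes W-20 cells stably expressing a FLAG-tagged YAP in which tyrosine was changed to phenylalanine at the site given by the name. The Y428F construct was driven by a CMV promoter, and positive clones were kept under puromycin. A difference between Y428F and WT cells therefore cannot be told apart from one that selection or the choice of clones brought about. The same holds for the expression of an introduced YAP as such, since no group had introduced unmutated YAP. The study's text describes the sequenced mutant cells as carrying a further serine-to-alanine change in the same YAP, and the library titles name only Y428F. The part of such a change cannot be told apart either. The genotype label of the Y428F libraries reads WT, and groups were therefore taken from the titles. Nothing in the labels says whether the 3 libraries of a group came from separate cultures, so the p-values measure the spread between these libraries, which may be technical.

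All of these enzymes except the ADAMTS-like proteins and some ADAMs carry a zinc ion at the active site. MMPs are made as inactive proenzymes and together cleave most proteins of the extracellular matrix, ADAMs release the outer parts of membrane proteins, and ADAMTS enzymes cleave proteoglycans and trim procollagens. TIMPs bind the active site and block it. In bone, these enzymes remodel the collagen matrix, and Mmp13, the main interstitial collagenase of the mouse, and Adamts1 are known as PTH-responsive genes of osteoblasts.

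The libraries held between 17127897 and 19057319 counts (median 17740980). Expression is given in CPM, the count scaled to a common library size with TMM factors over all 12 libraries, as the mean ± SD over 3 libraries. Unless DESeq2 is named, every adjusted p came from the quasi-likelihood test of edgeR and was adjusted by Benjamini-Hochberg over all genes tested. A gene was called when its adjusted p was under 0.05, and the error of a log2 fold change is its standard error (SE). The stromal identity was checked on a list of 13 mesenchymal markers. Their summed expression lay between 20821.8 and 24794.3 CPM in the WT libraries and between 10906.4 and 15537.8 CPM in the Y428F libraries, with the collagen gene Col1a2 the most abundant at a mean of 9996.5 CPM. Most of the sum came from Col1a2 and Col1a1 (12829.5 and 7048.6 CPM in WT cells with vehicle), so that it mainly follows these 2 collagen genes. Thy1 never exceeded 3 counts in a library, and Lepr was near the floor in WT cells with vehicle (0.143 CPM). In bulk RNA, fewer cells of a type and less RNA per cell cannot be told apart. Yap1 itself had 188.8 ± 7.2 CPM in WT cells with vehicle and 146.5 ± 4.64 CPM in vehicle-treated Y428F cells, for a log2 difference of -0.37 ± 0.053 (adjusted p = 7.7e-06). These counts do not separate the endogenous from the introduced gene, and therefore do not check the line labels.

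Of the 85 genes, 34 reached a mean of 1 CPM over the 12 libraries (termed expressed), and the rest were low or silent. In all 12 libraries, 19 genes had 0 counts and another 16 had a total of 1 to 9 counts. These 35 genes included 17 of the 34 Adam genes, many of which are known from the testis (such as Adam2, Adam3 and Adam18), the proteoglycan-cleaving Adamts8, Adamts9, Adamts15 and Adamts20, and the von Willebrand factor protease Adamts13. The other 50 genes had a total of at least 10 counts and entered the tests across all 12 libraries.

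Levels between genes were compared per kb of exons. Timp2 led the set with 505.7 CPM per kb over the 12 libraries. Timp2 inhibits most MMPs, and at the cell surface it joins with Mmp14 in the activation of pro-Mmp2. Mmp14, the membrane-anchored collagenase MT1-MMP, had the next level with 108.4 CPM per kb. It was followed by the ADAMs Adam9 (94.6 CPM per kb), Adam15 (53.2 CPM per kb) and Adam10 (38.2 CPM per kb), of which Adam10 is the sheddase of Notch receptors. Adamts1 and Timp1 had similar levels, 37.2 and 34.6 CPM per kb. Mmp11, a stromelysin that is activated inside the cell by furin, had 27.1, Adamtsl4, a fibrillin-binding protein, 19.1 and Adamts5, an aggrecanase, 16.0 CPM per kb. The gelatinases Mmp2 and Mmp9 had only 1.31 and 1.61 CPM per kb, and the collagenase Mmp13 had 0.679 CPM per kb. The TIMPs ranged widely, since Timp3 had 0.16 CPM per kb and Timp4 had a total of 13 counts.

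**Figure D1:**
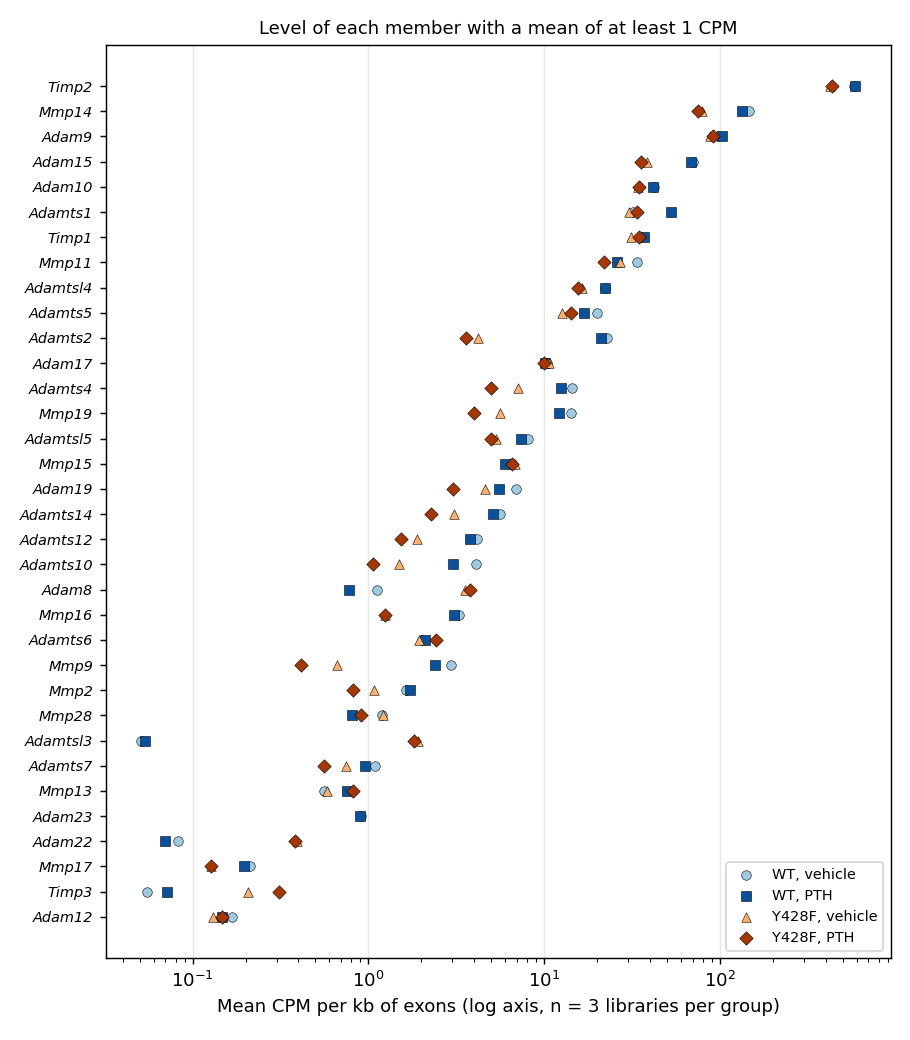
Mean CPM per kb of exons on a log axis for the 34 expressed genes, with 1 symbol for each of the 4 groups (3 libraries each). Timp2 stands above Mmp14 and Adam9 in every group, Adamtsl3 lies far higher in Y428F than in WT cells, and the Y428F values of Adam23, at or near 0, fall outside the axis.

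Yap1 has neighbours from this set on chromosome 9. Of the 85 genes, 10 lie within 2 Mb of Yap1 (GRCm39, chromosome 9, 7932000 to 8004661), at 232 to 649 kb, and they form the MMP gene cluster that holds the collagenases Mmp13, Mmp1a, Mmp1b and Mmp8, the stromelysins Mmp3 and Mmp10, the macrophage elastase Mmp12, the matrilysin Mmp7, Mmp20 of tooth enamel, and Mmp27. Most of the cluster was silent: 4 of the 10 genes had 0 counts in all libraries and 7 had fewer than 10. Mmp13, farthest from Yap1, had 390 counts in total, Mmp3 had 58 and Mmp10 had 11. In WT cells Mmp13 had 22, 31 and 29 counts with vehicle and 39, 33 and 30 with PTH. In Y428F cells it had 23, 33 and 32 counts with vehicle and 48, 40 and 30 with PTH. The vehicle and PTH counts overlapped in both lines, with log2 fold changes of 0.45 ± 0.28 in WT cells (adjusted p = 0.368) and 0.49 ± 0.26 in Y428F cells (adjusted p = 0.27), whose 95% intervals ran from -0.1 to 1.0 and from -0.02 to 0.99. Mmp3 had 1, 5 and 5 counts in WT cells with vehicle and 18, 2 and 0 with PTH, so that 1 library held most of its WT counts. In Y428F cells Mmp3 had 6, 4 and 3 counts with vehicle and 2, 5 and 7 with PTH. A change of Mmp3 was not detectable at this depth in any comparison. Mmp13 did not differ between the lines beyond its spread either, with log2 differences of 0.065 ± 0.27 with vehicle and 0.11 ± 0.26 with PTH.

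**Figure D2:**
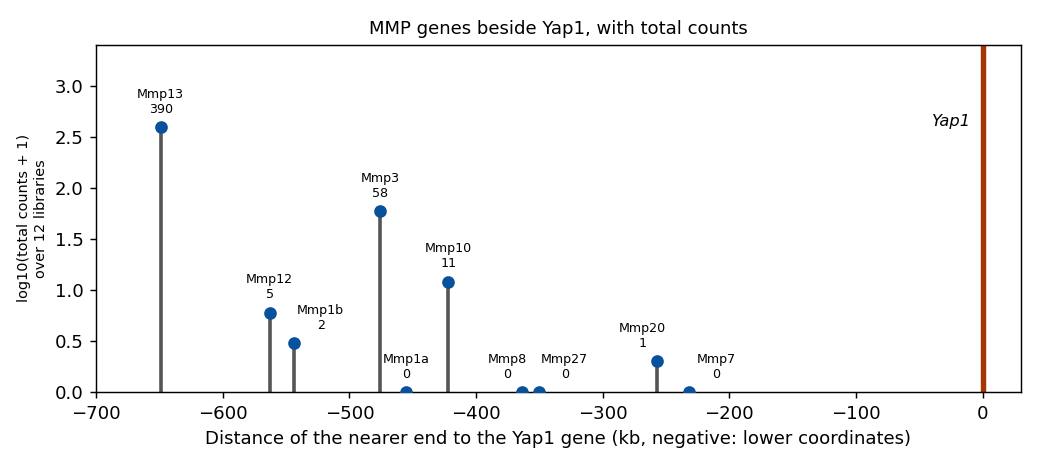
The 10 MMP genes nearest to Yap1, by the distance of their nearer end in kb (horizontal axis) and by log10 of their total counts over 12 libraries plus 1 (vertical axis), with the count printed above each gene. Mmp13, Mmp3 and Mmp10 are the ones with 10 counts or more, and Mmp1a, Mmp8, Mmp27 and Mmp7 are at 0.

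Most promoters of this cluster held 1 short word in common. The 250 bases before the annotated start were searched on both strands for TGACGTCA, the cAMP response element, for the word TGAGTCA that the AP-1 dimers of Fos and Jun prefer, which reads as TGACTCA from the opposite strand, and for the word GGAATG of the TEAD factors through which YAP acts, whose opposite strand has CATTCC. None of these words contains another. Promoters came from RefSeq (GRCm38.p6), where 54 of the 85 genes had 59 entries. The AP-1 word stood in 9 of the 54 genes, and 7 of these were the cluster genes Mmp13, Mmp12, Mmp1b, Mmp3, Mmp1a, Mmp10 and Mmp7, out of 10 cluster genes with an entry. It stood in 4.46% of all 32851 promoters. The other genes with it were Adam19 and Adam29. The cAMP response element stood in 0 of the 54 genes and in 1.55% of all promoters, and the TEAD word in 3 of the 54 (Adam19, Adamts13 and Timp1) and in 12.6% of all. A match is a description of letters and not a site of binding, and that the word gathers in the cluster was seen after the search. The sequences are shown for the 3 cluster genes with 10 counts or more and for the silent Mmp1a, as the 120 bases that end at the base before the start, with the AP-1 word in capitals. In GRCm38.p6 they lie on the plus strand at chr9:7272394-7272513 (Mmp13), chr9:7445702-7445821 (Mmp3), chr9:7502222-7502341 (Mmp10) and chr9:7464021-7464140 (Mmp1a). The word begins 35 bases before the start of Mmp13, 46 before that of Mmp3, 63 before that of Mmp10 and 73 before that of Mmp1a.
Mmp13: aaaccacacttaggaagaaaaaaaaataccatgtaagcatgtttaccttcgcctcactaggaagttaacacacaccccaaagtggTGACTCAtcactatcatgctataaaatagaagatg
Mmp3: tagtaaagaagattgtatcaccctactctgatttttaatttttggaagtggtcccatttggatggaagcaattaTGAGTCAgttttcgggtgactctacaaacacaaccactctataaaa
Mmp10: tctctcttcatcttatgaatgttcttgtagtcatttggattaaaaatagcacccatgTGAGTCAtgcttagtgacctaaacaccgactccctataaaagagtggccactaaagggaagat
Mmp1a: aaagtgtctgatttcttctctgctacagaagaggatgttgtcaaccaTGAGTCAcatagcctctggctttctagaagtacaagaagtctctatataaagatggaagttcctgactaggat

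PTH changed few of these genes in WT cells. The clear exception was Adamts1, a protease of aggrecan and versican, which rose 1.66-fold, whereas 4 genes fell: the stromelysin Mmp11, Mmp28 (epilysin), the aggrecanase Adamts4 and Adamts10, which works on fibrillin microfibrils. Of the 47 genes tested in the 6 WT libraries, 5 were called, in a comparison in which 11.8% of all 15583 genes tested were called. By direction, 1 rose and 4 fell, against 6.88% and 4.91% of all genes. When library totals alone set the scale, 744 of all genes were called higher and 1216 lower, against 1072 and 765 with TMM. Among the 34 expressed genes the called share was 14.7%, against 15.1% of all genes at that level, which puts the set near the background. The median log2 fold change of the 34 was -0.098, against -0.0047 for all genes.

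Adamts1 (ENSMUSG00000022893.15, GRCm39 chromosome 16, 85590579 to 85600009) had 190.1, 153.7 and 180.0 CPM in the WT libraries with vehicle and 287.2, 309.9 and 267.6 CPM after PTH. Each PTH library lay above each vehicle library. The log2 fold change was 0.73 ± 0.082 (adjusted p = 7.42e-05). Mmp11 had 104.2, 131.9 and 120.4 CPM with vehicle and 89.5, 89.9 and 96.1 CPM after PTH, so that the log2 fold change was -0.36 ± 0.079 (adjusted p = 0.00947). Adamts10 had 53.6, 62.1 and 44.8 CPM with vehicle and 42.0, 38.4 and 39.2 CPM after PTH (-0.42 ± 0.1, adjusted p = 0.02). The vehicle libraries of both genes were spread more widely than the PTH libraries, without overlap between the groups. Mmp28 had 8.3, 9.1 and 9.34 CPM with vehicle and 5.72, 7.5 and 4.95 CPM after PTH (-0.55 ± 0.15, adjusted p = 0.0333). Adamts4 had 93.2, 89.6 and 98.6 CPM with vehicle and 77.4, 82.5 and 79.7 CPM after PTH (-0.23 ± 0.064, adjusted p = 0.0365). The groups of Adamts4 were again separate, but the difference was small. Adamts1 was called whichever of the 6 WT libraries was left out. By contrast, Mmp11, Mmp28 and Adamts10 were called in 2 of these 6 fits each, and Adamts4 in 0, with adjusted p-values up to 0.0782 for Mmp11, 0.139 for Mmp28, 0.0941 for Adamts10 and 0.199 for Adamts4. The number of called genes was 8 without WT vehicle replicate 1, 1 without WT PTH replicate 1 and 2 without any of the others.

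The inhibitors and the proteases with the highest levels per kb, Mmp14, Adam9, Adam15 and Adam10, did not pass the test in WT cells. Timp2 had 2603.5 ± 53.8 CPM with vehicle and 2615.4 ± 74.0 CPM after PTH, so that the log2 fold change was 0.013 with a 95% interval of -0.12 to 0.14. Timp1, which unlike Timp2 blocks membrane-type MMPs poorly, had 69.9 ± 5.59 and 72.4 ± 4.9 CPM, with an interval of -0.1 to 0.21. The intervals of Timp3 (-0.77 to 1.48) and Timp4 (-2.25 to 2.0) were too wide to bound a change. Mmp14 had 897.1 ± 111.8 CPM with vehicle and 827.2 ± 22.7 CPM after PTH (-0.11 ± 0.083, adjusted p = 0.469), and it was called without WT vehicle replicate 1 (-0.2, adjusted p = 0.0325), as were Mmp9 and Mmp19. The sheddases Adam10 and Adam17 had intervals of -0.13 to 0.12 and -0.18 to 0.1. Of the 16 tested Adam genes, 0 were called by edgeR, against 11.8% of all genes, and 2 had an unadjusted p under 0.05, against 3932 of all 15583 genes. DESeq2 called 1 of the 16, Adam19 (adjusted p = 0.0356). Under edgeR's alternatives Adam19 (-0.31 ± 0.099, adjusted p = 0.0581) was also called with the replicate block (0.0438), library totals only (0.0247), the length correction (0.0417), no filter (0.00614) and without WT vehicle replicate 1 (0.00514), and Adam8 in the fit of all 12 libraries (0.0235).

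In Y428F cells, PTH lowered 6 of these genes and raised 1. Those that fell were the aggrecanase Adamts4, the procollagen N-proteinase Adamts14, Adamts10, the membrane protease Adam19 (meltrin beta), Mmp19 and Mmp11. Adamts6, a relative of Adamts10, rose. Of the 50 genes tested, 7 were called, against 12.4% of all 17691 genes tested, and the 1 higher and 6 lower stood against 6.61% and 5.78% of all genes. Among the 34 expressed genes, 20.6% were called, against 17.9% of all genes of that level. Adamts4, Adamts10 and Mmp11 were called in both lines, whose libraries are separate. Their WT calls were lost in 6, 4 and 4 of the 6 fits without 1 library. The comparisons between the lines and of the responses reuse the same 12 libraries.

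Adamts4 had 47.4, 44.8 and 46.0 CPM in the Y428F libraries with vehicle and 28.9, 34.6 and 32.9 CPM after PTH, so that the log2 fold change was -0.52 ± 0.069 (adjusted p = 3.36e-05). Adam19 had 38.1, 34.0 and 29.7 CPM with vehicle and 19.3, 21.0 and 26.3 CPM after PTH (-0.61 ± 0.12, adjusted p = 0.00149). The PTH libraries of both genes lay below all vehicle libraries, and those of Adam19 were the more widely spread. Mmp19 had 19.5, 20.1 and 19.9 CPM with vehicle and 13.7, 12.8 and 15.8 CPM after PTH (-0.49 ± 0.098, adjusted p = 0.00197). Adamts10 had 20.7, 18.3 and 19.6 CPM with vehicle and 12.7, 14.5 and 14.4 CPM after PTH (-0.49 ± 0.11, adjusted p = 0.00481). Adamts14 had 18.0, 16.6 and 19.2 CPM with vehicle and 11.6, 13.9 and 14.1 CPM after PTH (-0.44 ± 0.097, adjusted p = 0.00418). None of these 3 genes had overlapping groups. Mmp11 had 93.5, 93.4 and 97.0 CPM with vehicle and 76.1, 79.7 and 75.7 CPM after PTH (-0.29 ± 0.07, adjusted p = 0.00755). Adamts6 had 15.2, 15.1 and 14.8 CPM with vehicle and 18.6, 20.3 and 17.6 CPM after PTH (0.33 ± 0.09, adjusted p = 0.0201), and it was no longer called in 4 of the 12 fits that left out 1 library (adjusted p up to 0.0917, without the PTH-treated Y428F replicate 2). Of the 4 Timp genes, 0 were called by edgeR, 0 by DESeq2 and 0 had an unadjusted p under 0.05. Of all 17691 genes, 12.4% were called by edgeR and 4315 had an unadjusted p under 0.05. Timp2 had a 95% interval of -0.06 to 0.14.

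**Figure D3:**
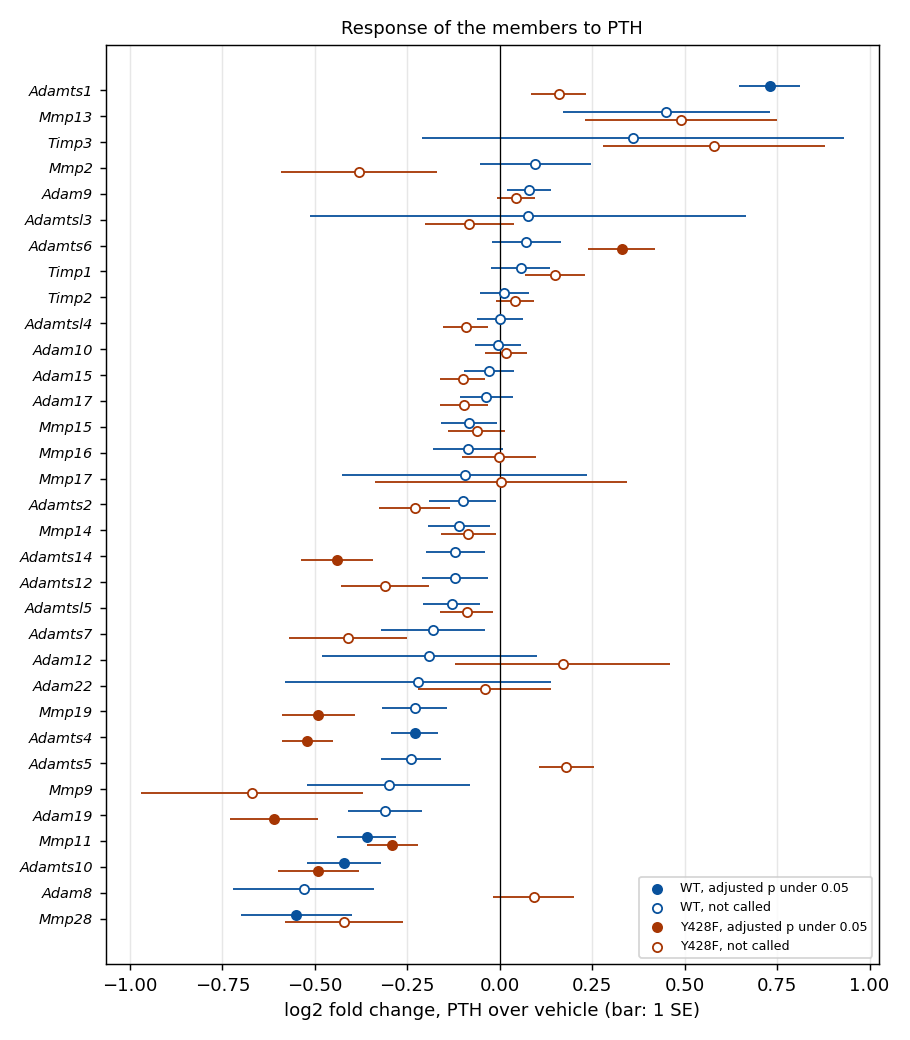
The log2 fold change of PTH over vehicle in WT cells (blue) and Y428F cells (brown) for 33 of the 34 expressed genes, sorted by the WT value, with bars of 1 SE and filled points where the adjusted p was under 0.05. Adam23, near 0 in Y428F cells, is not drawn. Adamts1 stands apart at 0.73 in WT cells and at 0.16 in Y428F cells, and most called genes lie to the left of 0.

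Adamts1 was the gene of the set whose PTH response differed between the lines. In Y428F cells it had 167.0, 166.8 and 164.7 CPM with vehicle and 175.0, 201.5 and 179.2 CPM after PTH. The PTH libraries were all above the vehicle libraries, but the log2 fold change was 0.16 ± 0.074 and did not pass the test (adjusted p = 0.198). Without Y428F PTH replicate 2, the highest of the 3, it was 0.092 (adjusted p = 0.519). The lines began from overlapping levels of Adamts1 with vehicle (-0.071 ± 0.074, adjusted p = 0.473), and with PTH it was lower in Y428F cells by 0.64 on the log2 scale (adjusted p = 3.77e-07). The test of the difference in response itself gave -0.57 ± 0.1 (adjusted p = 0.0162). Of the 50 genes tested for such a difference Adamts1 was called alone, in a comparison in which 0.413% of all 17691 genes were called. Over all alternative settings the difference ran from -0.64 to -0.49 and its adjusted p reached 0.0605. It was past 0.05 in 5 of the 12 fits without 1 library: without WT PTH replicate 1 (0.0545) or 2 (0.0597), without Y428F vehicle replicate 1 (0.0562) or 2 (0.052), and without Y428F PTH replicate 3 (0.0605). The 250 bases before the start of Adamts1 (GRCm38.p6, chr16:85803114-85803363, minus strand) held none of the words searched. They are printed in lower case throughout because no part was marked.
Adamts1: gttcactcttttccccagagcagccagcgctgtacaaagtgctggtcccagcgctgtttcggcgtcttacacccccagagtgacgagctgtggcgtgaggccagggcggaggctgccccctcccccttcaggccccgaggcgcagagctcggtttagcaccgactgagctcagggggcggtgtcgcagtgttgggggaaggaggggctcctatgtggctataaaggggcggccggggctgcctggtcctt

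Adamts5 lies 53.1 kb from Adamts1 on chromosome 16 and had values that went the other way. It had 240.9, 195.1 and 223.2 CPM in WT cells with vehicle and 177.3, 201.1 and 176.8 CPM after PTH, so the groups overlapped (-0.24 ± 0.081, adjusted p = 0.0723). In Y428F cells it had 141.3, 137.2 and 134.1 CPM with vehicle and 144.5, 167.7 and 155.9 CPM after PTH (0.18 ± 0.074, adjusted p = 0.127). Neither response passed edgeR's test as fitted here, but the WT fall was called when all 12 libraries were fitted together (-0.25, adjusted p = 0.0288), with library totals only (-0.3, adjusted p = 0.024), with the transcript length correction (-0.26, adjusted p = 0.045), with no filter on low counts (-0.24, adjusted p = 0.00637) and by DESeq2 (-0.24, adjusted p = 0.0388). The difference in response, 0.43 ± 0.1 with edgeR (unadjusted p = 0.000548, adjusted p = 0.098), was called by DESeq2's Wald test (0.43, adjusted p = 0.0204). At an unadjusted p under 0.05, 1247 of all 17691 genes had a difference in response, and 5 of the 50 genes did. Adamts4 was among them, with a fall that was larger in Y428F cells by 0.29 on the log2 scale (95% interval -0.47 to -0.1, adjusted p = 0.387), as were Adamts14 (-0.31, adjusted p = 0.63) and Adam8 (0.63, adjusted p = 0.297).

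**Figure D4:**
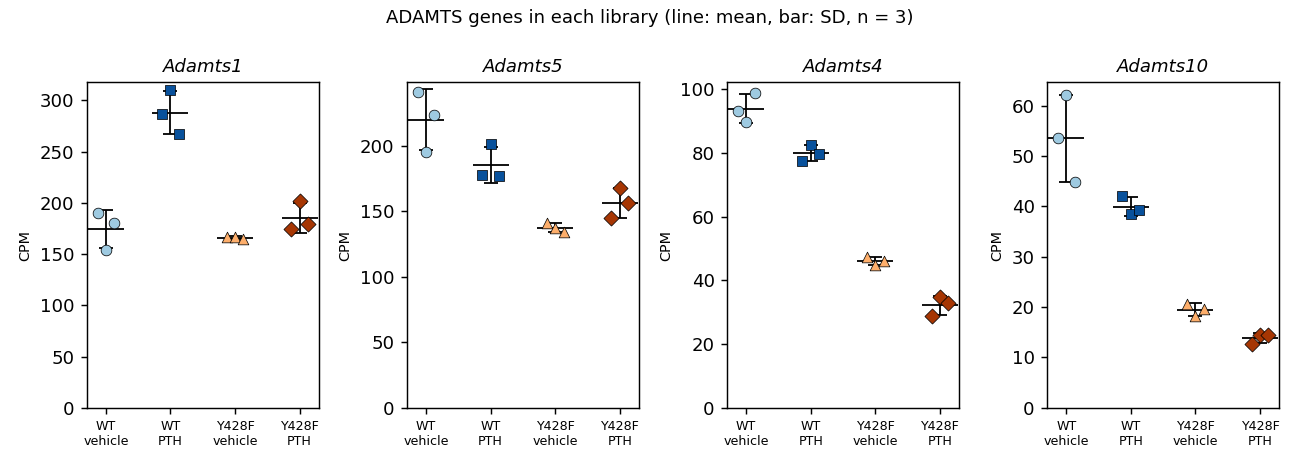
CPM of Adamts1, Adamts5, Adamts4 and Adamts10 in each of the 12 libraries, with the mean as a line and the SD as a bar for each group of 3. The WT libraries with PTH stand above all others for Adamts1, and the groups of Adamts4 and Adamts10 step down from WT to Y428F and from vehicle to PTH.

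The lines differed far more than the treatments did. With vehicle, Y428F cells had less than WT cells of Timp2, of Mmp14, of both gelatinases, of both tested procollagen N-proteinases, of both COMP-cleaving ADAMTS and of the aggrecanases Adamts4 and Adamts5. They had more of Adamtsl3, Adam22, Timp3 and Adam8, and 0 counts of Adam23. Of the 50 genes tested, 27 were called, 21 lower and 6 higher, in a comparison in which 45.1% of all 17691 genes were called, 22.7% lower and 22.4% higher. Among the 34 expressed genes 73.5% were called, against 59.6% of all genes at that level (30.9% lower and 28.7% higher), with 21 lower and 4 higher and a median log2 difference of -0.51, against -0.0098 for all. These values are descriptive, since Adamtsl3 and Timp3 reached the mean of 1 CPM through their Y428F libraries, and Adam23 and Mmp17 through their WT libraries. With PTH the counts were 22 lower and 5 higher of 50, against 45.7% of all genes called (23.0% lower and 22.8% higher), and among the 34 expressed genes 76.5% were called, against 60.2% of all genes at that level, with a median of -0.54.

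The level of Adam23 separated the lines completely. Adam23 and Adam22 lack the catalytic zinc site and are adhesion proteins known as receptors of LGI proteins in the brain. Adam23 had 309, 295 and 341 counts in the WT libraries with vehicle and 292, 289 and 270 with PTH. In Y428F cells it had 0 counts in each vehicle library, and 0, 1 and 0 with PTH. Against a floor of 3 counts per library, Adam23 was at least 107.2-fold lower in Y428F cells with vehicle. With PTH the ratio was 911.9, with a 95% interval of 163.2 to 36058.5 from counting error alone. Adam22 moved the other way, from 1.27, 2.27 and 1.34 CPM in WT cells to 7.72, 8.19 and 7.26 CPM in Y428F cells with vehicle (2.25 ± 0.22, adjusted p = 2.99e-08). Its Y428F libraries were all above its WT libraries. Adam22 shares up to 2684 bases of exon with the far more abundant Sri on the other strand (39260 counts against 1001). How reads on overlapping exons were assigned is not given in the sources used here, so its level is uncertain.

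Adamtsl3, a secreted relative of the ADAMTS enzymes without a protease domain, had 10, 5 and 9 counts in WT cells with vehicle and 316, 310 and 284 in Y428F cells. The libraries of the lines were far apart, with a log2 difference of 5.19 ± 0.21 with vehicle (adjusted p = 4.94e-14) and 5.04 ± 0.21 with PTH (adjusted p = 1.11e-13). Of the 5 ADAMTS-like genes, 2 were higher and 2 lower in Y428F cells with vehicle, against 22.4% and 22.7% of all genes. Adamtsl4 fell from 117.7 ± 6.34 to 87.0 ± 1.88 CPM (-0.44 ± 0.06, adjusted p = 4.07e-06) and Adamtsl5 was lower by 0.61 on the log2 scale. Adam8, a sheddase of leukocytes and osteoclasts, had 5.08, 4.83 and 5.74 CPM in WT cells and 15.6, 17.8 and 15.9 CPM in Y428F cells with vehicle (1.65 ± 0.13, adjusted p = 9.77e-10). With PTH it had 2.83, 4.24 and 3.73 CPM in WT cells and 16.1, 19.4 and 17.1 CPM in Y428F cells (2.28 ± 0.14, adjusted p = 1.86e-11). The levels of Adam8 in the lines did not overlap under either exposure. Adamtsl1, at 0.126 ± 0.0595 CPM in the WT and 0.797 ± 0.121 CPM in the Y428F vehicle group, and Adamts16, with 0 and 12 counts in the WT and Y428F vehicle groups, were the remaining called genes that were higher, and Adamts16 entered the tests through its Y428F libraries.

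The inhibitors were split. Timp2, the most abundant, had 2568.9, 2576.2 and 2665.5 CPM in WT cells and 1905.3, 1803.1 and 1923.0 CPM in vehicle-treated Y428F cells, for a log2 difference of -0.47 ± 0.052 (adjusted p = 2.14e-07). Every WT library lay above every Y428F library, also with PTH, where the difference was -0.44 ± 0.052 (adjusted p = 6.1e-07). Timp3, which unlike the other TIMPs binds to the matrix and inhibits Adam17 and aggrecanases, had 13, 5 and 7 counts in WT cells and 27, 39 and 29 in Y428F cells with vehicle (1.88 ± 0.37, adjusted p = 0.000284). With PTH it had 5, 14 and 10 counts in WT cells and 40, 47 and 49 in Y428F cells (2.11 ± 0.35, adjusted p = 4.12e-05). The Timp3 libraries of the lines did not overlap, yet per kb it stayed below Timp2 by a wide margin (0.206 against 420.6 CPM per kb in Y428F cells with vehicle). Timp1 had 69.9 ± 5.59 CPM in WT cells and 61.1 ± 3.24 CPM in Y428F cells with vehicle and did not pass the test (-0.19, 95% interval -0.35 to -0.03, adjusted p = 0.0585). Timp4 had 1, 3 and 2 counts in WT cells and 0 in each Y428F vehicle library, so no fold can be given.

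Among the MMPs, 6 of the 14 tested were lower in Y428F cells and 0 were higher, both with vehicle and with PTH and with edgeR and DESeq2 alike. These 6 are 42.9% of the 14, near the 45.1% and 45.7% of all genes called in these comparisons, with 22.7% and 23.0% of all genes lower. At an unadjusted p under 0.05 there were 7 of the 14 in each comparison, against 9029 with vehicle and 9136 with PTH of all 17691 genes. Mmp14 had 768.7, 973.0 and 949.7 CPM in WT cells and 497.7, 478.7 and 489.9 CPM in Y428F cells with vehicle (-0.88 ± 0.074, adjusted p = 4.55e-09). The lowest WT library was still well above every Y428F library. Mmp9, a gelatinase of osteoclasts and leukocytes, had 6.66, 14.7 and 11.6 CPM in WT cells and 2.08, 2.33 and 2.95 CPM in Y428F cells (-2.16 ± 0.23, adjusted p = 1.28e-07). Mmp2, the gelatinase of stroma, had 5.24, 6.03 and 6.01 CPM in WT cells and 4.16, 3.13 and 4.04 CPM in Y428F cells (-0.61 ± 0.19, adjusted p = 0.0127). The WT libraries of Mmp9 were widely spread, and the call of Mmp2 with vehicle was lost without Y428F vehicle replicate 2 (adjusted p = 0.0711). Mmp19, which acts on basement membranes, was lower by 1.35 on the log2 scale, from 50.7 ± 6.11 to 19.8 ± 0.299 CPM, and Mmp16 (MT3-MMP), from 49.8 ± 6.93 to 19.0 ± 1.06 CPM. Mmp11 had 118.8 ± 13.9 and 94.6 ± 2.04 CPM (-0.33 ± 0.069, adjusted p = 0.000492). Mmp15 and Mmp28 did not pass the test, with 95% intervals of -0.06 to 0.24 and -0.28 to 0.33.

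Of the 10 tested ADAMTS enzymes, 7 were lower and 1 was higher in Y428F cells with vehicle, and 8 were lower with PTH, against 22.7% of all genes lower and 22.4% higher with vehicle and 23.0% lower with PTH. Adamts2, the main procollagen N-proteinase, had 182.0, 228.2 and 237.6 CPM in WT cells and 39.7, 42.0 and 37.7 CPM in Y428F cells with vehicle. Each Y428F library held far less than the lowest WT library. The log2 difference was -2.44 ± 0.091 with vehicle (adjusted p = 1.58e-14) and -2.56 ± 0.093 with PTH (adjusted p = 1.07e-14). Adamts14, of the same role, was lower by 0.87 with vehicle and by 1.18 with PTH on the log2 scale. Adamts10 was lower by 1.45 and 1.52, and the COMP-cleaving Adamts12 and Adamts7 were lower by 1.13 and 0.54 with vehicle. Adamts4 had 93.8 ± 4.53 and 46.0 ± 1.29 CPM with vehicle (-1.03 ± 0.065, adjusted p = 5.67e-11) and 79.9 ± 2.6 and 32.1 ± 2.93 CPM after PTH (-1.31 ± 0.068, adjusted p = 2.25e-12). Adamts5 was lower by 0.68 with vehicle (adjusted p = 1.8e-07) and by 0.25 with PTH (adjusted p = 0.00947), the latter lost without WT PTH replicate 2 (adjusted p = 0.0817). Adamts6 was not called in either comparison, with -0.07 ± 0.091 with vehicle and 0.19 ± 0.09 with PTH.

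Of the 17 tested Adam genes, 5 were lower and 2 higher in Y428F cells with vehicle, against 22.7% and 22.4% of all genes. These are 41.2% of the 17, near the 45.1% of all genes called. Among the other expressed ADAMs, Adam15, Adam10, Adam19 and Adam9 were lower in Y428F cells. Adam15 had 558.6 ± 30.5 CPM in WT cells and 304.3 ± 8.85 CPM in Y428F cells with vehicle (-0.88 ± 0.06, adjusted p = 2.03e-10). Adam10 had 234.3 ± 6.73 and 190.5 ± 1.59 CPM (-0.3 ± 0.057, adjusted p = 0.000206), and Adam19 had 50.5 ± 6.68 and 33.9 ± 4.18 CPM (-0.57 ± 0.11, adjusted p = 0.000254). Adam9 had 423.0 ± 12.1 and 383.1 ± 9.41 CPM, a difference of -0.14 ± 0.052 (adjusted p = 0.0294). This call was lost when library totals alone set the scale (-0.087, adjusted p = 0.154) and with no filter on low counts (-0.14, adjusted p = 0.0713). It was also lost in 3 of the 12 fits without 1 library. Adam17, the sheddase of TNF, had 88.8 ± 8.01 and 90.7 ± 2.76 CPM, with a 95% interval of -0.09 to 0.16.

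**Figure D5:**
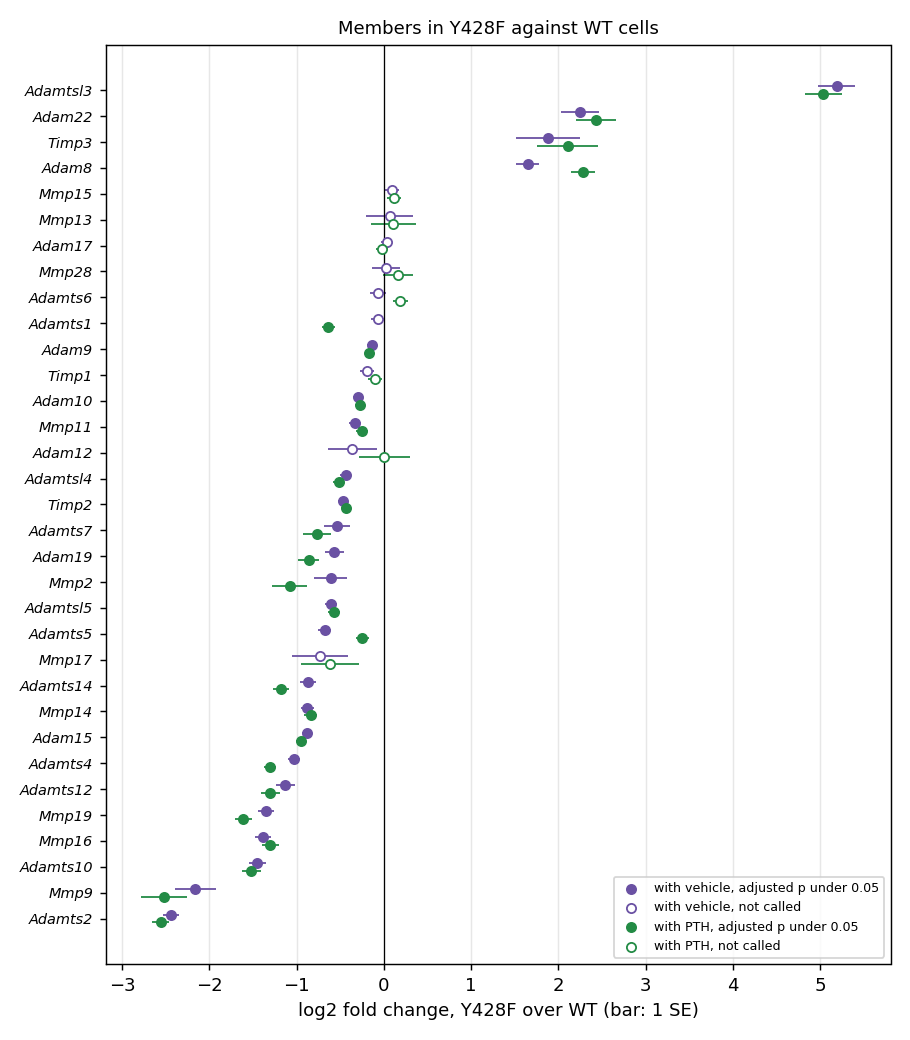
The log2 fold change of Y428F over WT cells with vehicle (purple) and with PTH (green) for 33 of the 34 expressed genes, sorted by the vehicle value, with bars of 1 SE and filled points where the adjusted p was under 0.05. Adam23 is not drawn because its Y428F libraries were at or near 0. Adamtsl3, Adam22, Timp3 and Adam8 lie to the right of 0, most other called genes to the left, and Adamts1 is called with PTH alone.

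Other genes of matrix turnover were followed on a list of 47 genes outside the set. In WT cells PTH raised 3 and lowered 1 of the 32 tested, and in Y428F cells it raised 4 and lowered 3 of the 34 tested. These are 12.5% and 20.6%, against 11.8% and 12.4% of all genes called. Among those raised in both lines were the urokinase receptor gene Plaur and Thbs1, a matrix glycoprotein. Plaur had 23.1 ± 2.48 CPM in WT cells given vehicle and 36.0 ± 2.43 CPM in those given PTH, and 39.0 ± 3.45 and 68.2 ± 3.57 CPM in Y428F cells. It rose by 0.64 ± 0.092 in WT cells (adjusted p = 0.000561) and by 0.81 ± 0.082 in Y428F cells (adjusted p = 1.24e-06). The matrix protease gene Htra3 fell in both lines, by 0.38 and 0.27 on the log2 scale. For a difference in response, 0 of the 34 were called by edgeR, against 0.413% of all genes, and 0 by DESeq2. At an unadjusted p under 0.05 there were 3, against 1247 of all 17691 genes, and Thbs1 was 1 of the 3 (-0.45, adjusted p = 0.325). Between the lines with vehicle, 19 of the 34 were lower and 5 higher in Y428F cells, which is 70.6%, against 45.1% of all genes called. The MMP inhibitor Reck had 50.7 ± 3.97 CPM in WT cells and 23.1 ± 0.965 CPM in Y428F cells (-1.13 ± 0.087, adjusted p = 1.02e-09), while the urokinase gene Plau rose from 0.38 ± 0.0449 to 3.99 ± 0.279 CPM (3.37 ± 0.28, adjusted p = 2.71e-09). Plat, the tissue plasminogen activator, fell from 194.4 ± 20.4 to 67.0 ± 0.497 CPM (-1.54 ± 0.067, adjusted p = 1.48e-13). Bmp1, the procollagen C-proteinase, was lower by 0.36, in the same direction as the N-proteinase Adamts2. Furin, which activates Mmp14 and Mmp11, had a 95% interval of -0.14 to 0.1.

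The osteoblast and adipocyte lists, of fates that BMSCs can take, had summed expression of 70.5 to 95.9 and 363.8 to 480.0 CPM, led by Runx2 and Lpl, while Ibsp, Bglap and Adipoq never exceeded 3 counts. With vehicle, Runx2 was lower (-0.3, adjusted p = 0.000919) in Y428F cells, as was Fabp4 (-2.03, adjusted p = 8.67e-11), and Pparg was higher (0.33, adjusted p = 0.000835). Lpl was also higher, by little (0.15, adjusted p = 0.0496). Thus 1 of the 3 tested osteoblast markers was lower, and of the 3 tested adipocyte markers 2 were higher and 1 lower. Of all genes, 22.4% were higher and 22.7% lower. Pparg also rose with PTH, by 0.52 in WT cells (adjusted p = 0.00135) and by 0.71 in Y428F cells (adjusted p = 9.62e-07). Of the stromal markers, Pdgfra fell with PTH in WT cells (-0.59, adjusted p = 0.00146) and in Y428F cells (-0.73, adjusted p = 7.17e-05), and Col1a1 fell in Y428F cells (-0.33, adjusted p = 0.0218). The summed stromal expression was 20966.0 to 24794.3 CPM with vehicle and 20821.8 to 23932.1 CPM after PTH in WT libraries, which overlap, and 14462.6 to 15537.8 and 10906.4 to 13664.6 CPM in Y428F libraries, which do not. Markers of leukocytes, endothelium, osteoclasts and epithelium were low. Of the 7 leukocyte and macrophage markers, 6 were tested and 3 called higher in Y428F cells with vehicle, against 22.4% of all genes. Csf1r (-0.98, adjusted p = 0.322) and Itgam (-2.61, adjusted p = 0.0989) lay lower but did not pass the test. The summed expression of the 7 markers was 6.6 to 9.15 CPM in the WT libraries and 17.0 to 22.0 CPM in the Y428F libraries. Cd14 was the most abundant (a mean of 8.82 CPM), and Adgre1 was never above 3 counts. Of the 4 endothelial markers 1 was called higher, against the same 22.4% of all genes, with sums of 0.91 to 1.77 and 6.12 to 9.94 CPM and Cdh5 leading. The sums of the 4 osteoclast markers reached at most 0.555 CPM in a library, with Oscar leading and Calcr and Ocstamp never above 3 counts. Those of the 4 epithelial markers, led by Cdh1, reached 0.177 CPM in WT and 0.983 CPM in Y428F libraries, with Epcam and Krt5 never above 3 counts. Of the 12 tested stromal markers, 10 were lower and 2 higher in Y428F cells with vehicle, against 22.7% and 22.4% of all genes. The 2 higher ones were Ly6a (1.23, adjusted p = 2.37e-12) and Lepr (2.77, adjusted p = 0.000244). The part of these cells or marker changes in the values of Adam8, Mmp9 and the other genes was not tested. Chromosome 9, which carries Yap1, the MMP cluster, Adam10 and Adamts7, had a median log2 difference of -0.24 between the lines with vehicle over the 572 genes averaging 4 CPM or more, and chromosome 10, with Timp3, Mmp11 and Mmp19, of 0.25 over 489 genes. The part of these chromosome-wide shifts was not tested either. Exons overlap on the opposite strand between Adam9 and Tm2d2, Adam17 and Iah1, Mmp19 and Tmem198b, Timp3 and Syn3, and Mmp2 and the gene model Gm45472, and the values of these genes carry the same uncertainty as those of Adam22.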

How the data were processed

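RNA-Seq was performed on poly-A RNA of W-20 cells, 3 libraries for each of 4 groups. Per the labels and the submitters' processing notes, reads were aligned with STAR (v2.7.10b) to GRCm39 and quantified per gene with RSEM, and the notes also name DESeq2. The authors deposited RSEM expected counts, which need not be whole (6.32% of values were not) and were rounded here. Library totals are given with the results. Symbols and coordinates came from GENCODE vM39 (GRCm39), a later release than the authors' vM31, in which 744 of the 56980 gene identifiers had no match.

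Genes whose counts summed to 10 or more were tested with edgeR (4.0.16, R 4.3.3) by the quasi-likelihood test with TMM scaling and Benjamini-Hochberg adjustment at 0.05. PTH against vehicle in WT cells was fitted on the 6 WT libraries, and the other 4 comparisons on all 12 libraries, so that they share 1 estimate of the spread. Scripts were tested on simulated data. Intervals of single genes cover 95%. Ratios of counts have exact intervals, and these and the floor of 3 counts per library cover counting error only. DESeq2 (1.42.0), other scalings and filters, a stricter rule, a replicate block, a length correction and each left-out library were tried as alternatives. Genes named in full were the TIMPs, 10 members best known in skeletal matrix, the 10 highest per kb, per comparison the 8 called genes with the largest change, at least 1 CPM and no overlap between groups, and those near 0 in 1 line alone, 29 in all. Others named were chosen after their values were seen. The members and lists were chosen with earlier results of these data known. Whether libraries were directional is not settled by the sources used here.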

Additional observations from a re-analysis of the deposited data

Results flagged for a closer look

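The PTH response of Adamts1 may deserve a second look because the effect of the same treatment differed between the cell lines by a test of the difference itself (log2 difference -0.57 ± 0.1, 95% interval -0.77 to -0.36, adjusted p = 0.0162 in edgeR's quasi-likelihood test). The call was lost in 5 of the 12 fits without 1 library (adjusted p up to 0.0605) and under the stricter rule described below. In WT cells the means were 174.6 and 288.2 CPM without and with PTH, and in Y428F cells 166.2 and 185.3 CPM, with each PTH library above each vehicle library in both lines.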

How the results depend on the processing

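Over all alternatives, the 57 results of single named genes gave 1115 values, of which 1065 kept direction and side of the threshold, 50 kept direction but lost the call, and 0 reversed. Those that lost the call belonged to 14 of the 56 called results. Between the lines, the count of called genes stayed within 1.5 times under every alternative. In WT cells, the 5 genes called for PTH became 8 with library totals only, 2 under the stricter rule (a log2 fold change beyond 0.3 with an adjusted p under 0.01), and 1 to 8 with 1 library left out. The edgeR fit of all 12 libraries, on which the Y428F comparison rests, kept these 5 genes and added Adamts5 (adjusted p = 0.0288) and Adam8 (adjusted p = 0.0235). The counts of the lines as fitted here are therefore not like for like. In Y428F cells, the 7 genes became 12 with no filter on low counts, which tests 66 genes, and 6 to 9 with 1 library left out. For the difference in response, the 1 gene became 2 with DESeq2, 2 with no filter and 2 with the transcript length correction, the added gene being Adamts5 each time, 0 under the stricter rule, and 0 to 2 with 1 library left out. The cause was not tested. With library totals only, the medians of all genes lay between -0.0732 and 0.0854 on the log2 scale, against -0.015 and 0.019 with TMM, and in Y428F cells 888 genes were called higher and 1445 lower with PTH, against 1170 and 1022 with TMM.

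The labels give every group replicate numbers 1 to 3. Same-numbered libraries did not deviate together (mean r = 0.0349 over 18 pairs and 10351 genes, from -0.22 to 0.387), 5 of 12 libraries correlated best with their own number, and the numbers were not taken to pair samples. With the number as a replicate block, 5 genes were called for PTH in WT cells (Adamts4 was lost at an adjusted p of 0.074 and Adam19 gained at 0.0438), 8 in Y428F cells, 28 and 27 between the lines with vehicle and PTH, and 1 for the difference. Levels per kb of the longest transcript kept 9 of the 10 highest genes. Depth limits the 35 genes with fewer than 10 counts, and Mmp3, Timp3 and Timp4 among those named.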
